A study of Mus musculus with 8 samples.

Results

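COUP transcription factors (COUP-TFs) and related orphan nuclear receptors were followed through retinoic acid (RA) differentiation of mouse embryonic stem cells (ESCs) in nanopore RNA libraries. The set is 7 genes of the 24421 counted, matched by symbol in every library: Nr2f1, Nr2f2 and Nr2f6 (the COUP-TF group), Nr2c1 and Nr2c2 (the testicular receptors TR2 and TR4), Nr6a1 (germ cell nuclear factor) and Nr5a2 (liver receptor homolog). It was chosen from the nuclear receptor family with earlier results on the change between states known, so that change is described by its values for the 7 genes, and the counts of calls given for it are no independent evidence. The cells were the R1 ESC line in 2 states. Undiff cells were undifferentiated ESCs, which the study's methods describe as maintained with leukaemia inhibitory factor. Day4 cells were grown as embryoid bodies, aggregates in which ESCs differentiate, and then treated with RA for 4 days. The labels name all libraries as embryoid bodies, and the description of Undiff therefore differs between the labels and the methods. No genetic change was made in either state, and R1 is a single line. RNA of each state was sequenced on Oxford Nanopore (ONT) flow cells with 2 kits, Direct RNA, which reads the native RNA strand, and cDNA, which reads an amplified copy, giving 4 groups of 2 libraries. The 2 replicates of a state were grown and treated separately according to the methods.

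Nuclear receptors are transcription factors with a zinc finger DNA-binding domain and a ligand-binding domain, and those without a known natural ligand when they were found are called orphans. COUP-TFs bind repeats of the AGGTCA half-site as dimers, often repress transcription and compete there with retinoid receptors, and their genes are classical RA-induced genes with roles in neural, vascular and mesenchymal development. TR2 and TR4 bind direct repeats of the same half-site. Germ cell nuclear factor represses pluripotency genes, Pou5f1 among them, when ESCs differentiate, whereas liver receptor homolog binds an extended half-site as a monomer and is known to maintain Pou5f1 expression in the epiblast.

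Sequence upstream of one gene with more reads at Day4 and one with fewer is shown, because these runs lie directly before the start sites of genes with opposite patterns. Each run is the 250 bases before the RefSeq transcription start in GRCm38.p6, read 5′ to 3′ on the gene's strand. Capitals mark the nuclear receptor half-site AGGTCA, the TATA box letters TATAAA and the CCAAT box letters CCAAT, each searched on both strands.
Nr2f2, chr7:70366747-70366996, minus strand: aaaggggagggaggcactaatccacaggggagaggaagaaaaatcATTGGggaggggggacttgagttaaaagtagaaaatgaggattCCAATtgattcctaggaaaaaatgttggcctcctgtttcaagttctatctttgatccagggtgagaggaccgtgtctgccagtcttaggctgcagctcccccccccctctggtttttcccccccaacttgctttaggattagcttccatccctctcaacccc
Nr5a2, chr1:136960449-136960698, minus strand: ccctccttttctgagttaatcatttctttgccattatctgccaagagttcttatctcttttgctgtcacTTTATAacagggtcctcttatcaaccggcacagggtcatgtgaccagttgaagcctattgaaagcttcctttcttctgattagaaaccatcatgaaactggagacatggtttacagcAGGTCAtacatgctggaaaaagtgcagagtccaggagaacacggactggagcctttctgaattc
In the Nr5a2 window shown, 1 AGGTCA began 64 bases before the start. The letters TATAAA on the other strand (written TTTATA) began 181 bases before it. The Nr2f2 window held 2 matches of the letters CCAAT, which began 162 and 205 bases before the start, and no AGGTCA. It overlaps an exon of B130024G19Rik, a gene on the opposite strand. RefSeq gave 10 such windows for the 7 genes, and AGGTCA was in 2 of them (1 of Nr5a2, 1 of Nr6a1), against 14% of 32851 windows of all genes. The share of all windows was 12.4% for TATAAA and 33.8% for CCAAT. Direct repeats of AGGTCA spaced by 0, 1, 2 or 5 bases were in none of the 10 windows and in at most 0.0335% of all windows. GC content was 50.0% in the Nr2f2 window and 43.2% in the Nr5a2 window shown, against a median of 52.4%. RefSeq gave another Nr5a2 window, with 1 CCAAT, no AGGTCA, no TATAAA and 49.6% GC.

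Libraries of the Direct RNA kit held 283461 to 907489 reads on genes, and those of the cDNA kit 948657 to 2088592. Levels are given as CPM, the reads of a gene per 1000000 reads on genes, and a library in which a gene had 0 reads could hold up to 3 reads, that is 3.31 to 10.6 CPM in Direct RNA and 1.44 to 3.16 CPM in cDNA (counting error only). Levels are compared within a gene and not between genes. The state labels were checked with marker genes. All 8 ESC markers were called lower at Day4 in each kit, with a summed level of 6405 to 6778 CPM in Undiff and 60.0 to 172.2 CPM at Day4 in Direct RNA, and of 3428 to 4427 CPM and 11.4 to 121.8 CPM in cDNA. A gene was called when DESeq2 gave an adjusted p of 0.05 or less, its log2 fold change reached 1 in either direction and its mean normalised count reached 5.

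Nr2f1, which encodes COUP-TFI, was nearly undetected in Undiff and was read in every Day4 library. In Direct RNA it had 1 and 0 reads in the Undiff libraries (2.87 and 0 CPM), and 33 and 89 reads in the Day4 libraries (116.4 and 120.7 CPM). In cDNA it had 0 reads in both Undiff libraries, and 154 and 275 reads at Day4 (116.8 and 132.4 CPM). The states did not overlap in either kit, and the 4 Day4 libraries lay within a narrow range although they were made with different kits. The ratio of Day4 to Undiff CPM, from the reads summed over libraries, was 150.1 in Direct RNA, with an exact 95% counting interval of 26.4 to 5975 set by the single Undiff read. In cDNA the Day4 mean was at least 39.4-fold higher than the floor of 3 reads in the shallower Undiff library. The fitted log2 fold change was 5.79 (SE 0.985, n = 2 per state) in Direct RNA and 7.79 (SE 1.11) in cDNA, where it depends on the prior because one group was at 0. Without the second Undiff library it was 4.26 in Direct RNA and 6.41 in cDNA. The gene lies at chr13:78188973-78199757 on the minus strand of GRCm38, with 3 exons in its longest transcript.

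Nr2f2, which encodes COUP-TFII, showed the same on and off pattern but differed in level between the kits. Direct RNA gave 0 reads in both Undiff libraries, and 79 and 117 reads in the Day4 libraries (278.7 and 158.6 CPM). In cDNA there were 0 and 4 reads in Undiff (0 and 1.92 CPM) against 1321 and 3563 reads at Day4 (1002 and 1715 CPM). Each state was again separate from the other, with the cDNA Day4 libraries above all others. The Day4 mean was at least 25.4-fold higher than the Undiff floor in Direct RNA. In cDNA the ratio from summed reads was 1092, with a counting interval of 426.3 to 4010. The fitted log2 fold changes were 7.38 (SE 1.08) and 9.14 (SE 0.704). In Direct RNA the value was 6.00 without the second Undiff library and 6.53 without the first Day4 library. In cDNA it was 6.52 without the first Day4 library, 6.84 without the second and 8.52 without the first Undiff library. The reads of Nr2f2 for each Nr2f1 read serve here to compare libraries, not the levels of the 2 genes. They were 2.39 and 1.31 in the 2 Direct RNA Day4 libraries, and 8.58 and 13.0 in the cDNA ones. This ratio holds the same Nr2f2 reads, so it is no separate evidence of a difference between kits. The gene is at chr7:70351944-70366735 on the minus strand, with 3 exons in its longest transcript.

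Nr2f6, the third COUP-TF gene (also known as Ear2), was read in every library of both states. Direct RNA gave 25 and 77 reads in Undiff (71.7 and 84.8 CPM) and 51 and 106 at Day4 (179.9 and 143.7 CPM). In cDNA there were 7 and 10 reads in Undiff (7.38 and 4.79 CPM) and 14 and 11 at Day4 (10.6 and 5.29 CPM). Day4 was higher without overlap in Direct RNA, by 2.07-fold between the means, whereas the states overlapped in cDNA, where the means differed by 1.31-fold. The fitted log2 fold changes were 0.89 (SE 0.451) and 0.09 (SE 0.956), and the latter was -0.24 without the second Undiff library and -0.42 without the first Day4 library. The gene is at chr8:71374123-71381960 on the minus strand, with 4 exons in its longest transcript.

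**Figure D1:**
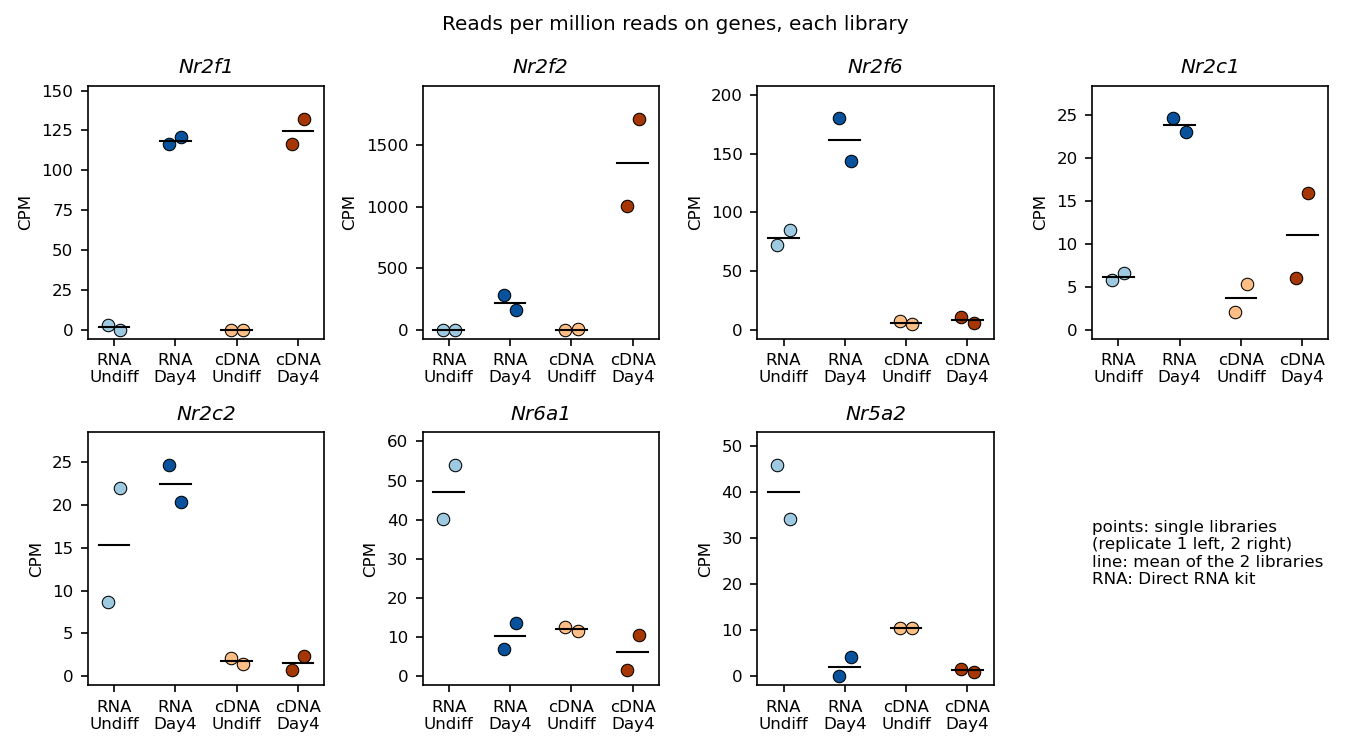
Level of each gene in CPM (linear axes that start at 0, one scale per gene) in the 8 libraries; each point is a library, and each line the mean of 2. Nr2f1 and Nr2f2 are near 0 in Undiff in both kits, Nr6a1 and Nr5a2 are highest in Direct RNA Undiff, and Nr2f6 and Nr2c2 are lower in cDNA in both states.

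Nr2c1 and Nr2c2, the TR2 and TR4 receptor genes, were read at low depth. Nr2c1 had 2 and 6 reads in Direct RNA Undiff (5.74 and 6.61 CPM) and 7 and 17 at Day4 (24.7 and 23.0 CPM). In cDNA it had 2 and 11 reads in Undiff (2.11 and 5.27 CPM) and 8 and 33 at Day4 (6.07 and 15.9 CPM). Both kits placed its Day4 libraries above the Undiff libraries, with ratios from summed reads of 3.69 (95% counting interval 1.604 to 9.50) in Direct RNA and 2.82 (1.48 to 5.74) in cDNA. These intervals leave out the spread between replicates. The fitted log2 fold changes of Nr2c1 were 1.56 (SE 1.01) and 1.05 (SE 0.990), the latter 0.38 without the second Day4 library and 0.60 without the first Undiff library. Nr2c2 had 3 and 20 reads in Direct RNA Undiff (8.61 and 22.0 CPM) and 7 and 15 at Day4 (24.7 and 20.3 CPM). In cDNA it had 2 and 3 reads in Undiff and 1 and 5 at Day4, from 0.759 to 2.41 CPM over these libraries. The states of Nr2c2 overlapped in both kits, with log2 fold changes of 0.32 (SE 0.920) and -0.34 (SE 1.41), so no difference between states was detectable at this depth. Nr2c1 is at chr10:94148023-94197211 and Nr2c2 at chr6:92091390-92174294, both on the plus strand.

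Nr6a1, the repressor of pluripotency genes, had a lower mean CPM at Day4 in each kit. Direct RNA gave 14 and 49 reads in Undiff (40.2 and 54.0 CPM) and 2 and 10 at Day4 (7.06 and 13.6 CPM). In cDNA there were 12 and 24 reads in Undiff (12.6 and 11.5 CPM) and 2 and 22 at Day4 (1.52 and 10.6 CPM). No Day4 library reached an Undiff library of its kit, but the second cDNA Day4 library came within 1 CPM of the nearer one. The ratio of Undiff to Day4, from summed reads, was 4.27 (95% counting interval 2.28 to 8.70) in Direct RNA and 1.68 (0.973 to 2.94) in cDNA. These intervals cover counting error only and leave out the spread between replicates. The log2 fold changes were -2.03 (SE 0.816) and -1.21 (SE 0.918). Without the second cDNA Day4 library the latter was -2.44, and without the first it was -0.47. Nr6a1 lies at chr2:38723370-38927688 on the minus strand.

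Nr5a2, which encodes liver receptor homolog, was lower at Day4 in both kits, with few Day4 reads in any library. Direct RNA gave 16 and 31 reads in Undiff (45.9 and 34.2 CPM) against 0 and 3 at Day4 (0 and 4.07 CPM). In cDNA there were 10 and 22 reads in Undiff (10.54 and 10.53 CPM) against 2 and 2 at Day4 (1.52 and 0.963 CPM). The states did not overlap in either kit, and the Day4 libraries were at or below the level of 3 reads. Undiff exceeded Day4 by a ratio of 12.7 (95% counting interval 4.1 to 64.0) in Direct RNA and 8.94 (3.17 to 34.8) in cDNA, from summed reads. The log2 fold changes were -3.39 (SE 1.02) and -2.97 (SE 1.05), with -2.62 in Direct RNA without the first Day4 library and -2.25 in cDNA without the second. Nr5a2 lies at chr1:136842571-136960448 on the minus strand.

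Between states 2 of the 7 genes met the thresholds as higher at Day4 (Nr2f1, Nr2f2) and 1 as lower (Nr5a2), in each kit. Of all genes with a mean normalised count of at least 5, 9.54% were called higher and 7.67% lower in Direct RNA, and 8.69% and 9.24% in cDNA. All 7 genes passed that count in Direct RNA and 6 in cDNA, where Nr2c2 did not. These counts come from the contrast by which the genes were chosen, and nothing is read from them. Nr5a2 did not meet the thresholds in either kit when any 1 of that kit's 4 libraries was left out, and with the replicate number as a block Nr2f2 in Direct RNA (1.67 on the log2 scale), Nr2f1 in cDNA (1.76) and Nr5a2 in both kits did not. Nr2f2 in Direct RNA and Nr2f1 in cDNA had an Undiff group at 0 reads, where the fitted value depends on the prior. With the reads on genes as size factors, the calls over all cDNA genes were 1263 higher and 655 lower, in place of 893 and 949.

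**Figure D2:**
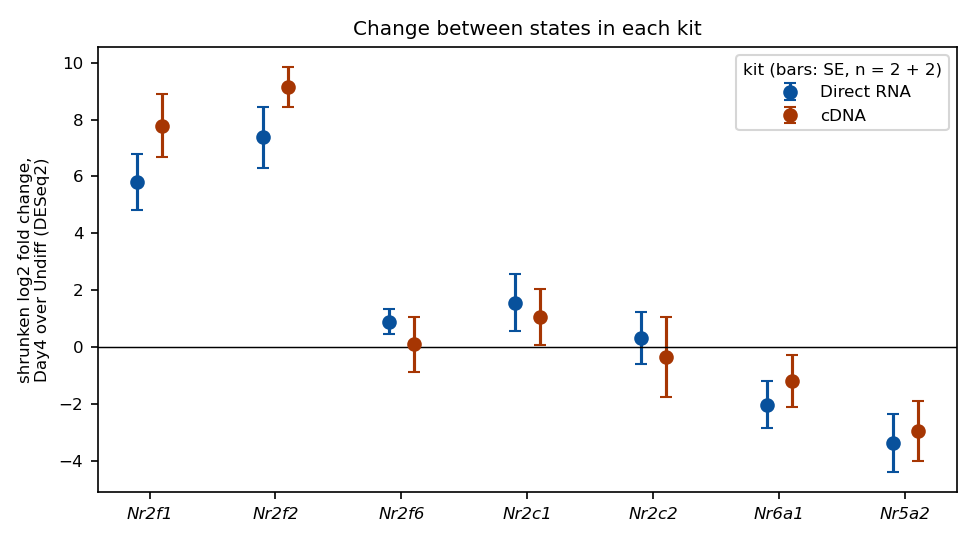
Fitted log2 fold change of Day4 over Undiff (vertical axis) for the 7 genes in each kit, with bars of 1 SE and 2 libraries per state. Nr2f1 and Nr2f2 lie from 5.79 to 9.14, Nr6a1 and Nr5a2 below 0 in both kits, and the others within about 1.6 of 0; Nr2f2 in Direct RNA and Nr2f1 in cDNA had an Undiff group at 0 reads.

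RNA of other cell types moved with these changes. Of 10 mesoderm and mesenchyme markers, 10 were called higher at Day4 in Direct RNA and 8 in cDNA, and their summed level went from 25.8 to 34.2 CPM in Undiff to 1875 to 3418 CPM at Day4 in Direct RNA, and from 10.5 to 17.7 CPM to 397.5 to 501.6 CPM in cDNA. Of these markers Col1a2, Col3a1, Tbx5 and Gata5 had 0 reads in Undiff in both kits. Among 10 extraembryonic endoderm markers 6 and 4 were called higher, with summed levels of 17.2 to 27.6 CPM in Undiff and 726.7 to 1101 CPM at Day4 in Direct RNA, and of 12.6 to 13.9 CPM and 296.6 to 328.8 CPM in cDNA. Gata6, Afp and Ttr of that list had 0 reads in Undiff in both kits. Sox17, Foxa2, Cubn and Amn were called in neither kit, and Afp and Apoa1 were not called in cDNA. Amn went the other way, with fitted log2 values below 0 from native RNA (-2.32, SE 1.38) and from cDNA (-2.41, SE 1.23). Of 10 neural markers 1 was called higher (Ncam1) and 2 lower (Tubb3, Stmn2) in each kit, and the summed level went from 637.1 to 643.5 CPM in Undiff to 134.2 to 183.4 CPM at Day4 in Direct RNA, while in cDNA it was 643.0 to 807.7 CPM and 644.1 to 653.7 CPM. In bulk RNA, fewer cells of a type and less RNA per cell cannot be told apart, and the part of these cell types in the levels of the 7 receptors was not tested.

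The kits were then compared for each gene, with the state as a covariate, to ask whether the receptor levels depended on the library type. Nr2f6 and Nr2c2 were lower in cDNA. The log2 difference of cDNA from Direct RNA was -3.28 for Nr2f6 (SE 0.385, 95% interval -4.04 to -2.53, DESeq2 adjusted p = 5.2e-16, n = 4 libraries per kit). The mean CPM of Nr2f6 was 12.9-fold lower in cDNA in Undiff and 20.3-fold lower at Day4, with no overlap of libraries. For Nr2c2 the difference was -2.59 (SE 0.641, interval -3.85 to -1.34, adjusted p = 0.000258 by DESeq2), with means 8.65-fold lower in Undiff and 14.2-fold lower at Day4, again without overlap. Nr2f2 was higher in cDNA, by 3.12 (SE 0.373, interval 2.39 to 3.86), and at Day4 its means differed by 6.21-fold without overlap. Its levels in both kits were known when the genes were listed, so no p is given. Over all genes, 24.7% were called higher and 26.6% lower in cDNA at the same thresholds, so 3 of 7 genes called is not set apart from the background.

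The other 4 receptors did not pass the test between kits. The log2 difference was 0.58 for Nr2f1 (interval -0.18 to 1.34, DESeq2 adjusted p = 0.278), -0.24 for Nr2c1 (-1.31 to 0.84, adjusted p = 0.873), -0.72 for Nr6a1 (-1.74 to 0.29, adjusted p = 0.321) and -0.91 for Nr5a2 (-1.98 to 0.15, adjusted p = 0.202). These intervals leave room for differences of more than 1 log2 unit in each. The scaling mattered here. Among genes averaging 50 reads or more, the median was a log2 difference of 0.87 under DESeq2 size factors and of -0.02 when the reads on genes were used as size factors. With the latter Nr2f1 was at -0.05, the calls over all genes were 1132 higher and 4394 lower in place of 2572 and 2772, and Nr6a1 (-1.41, DESeq2 adjusted p = 0.0257) and Nr5a2 (-1.68, adjusted p = 0.00776) were called lower in cDNA too. Nr2f2 (2.50), Nr2f6 (-4.04) and Nr2c2 (-3.28) kept their direction and call under that scaling.

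Exons shared with a gene on the opposite strand were compared between the receptors, because the methods name only Direct RNA as counted by strand on genes and give no setting for cDNA there. Without strand, reads of such partners cannot be told apart, and a read on shared bases can be left out as ambiguous. In the GENCODE vM21 annotation 54.4% of the exon bases of Nr2f6 are shared with Ocel1, and 31.2% of those of Nr2c2 with genes on the opposite strand, most of them with Mrps25. The share was 7.46% for Nr2f2 (with B130024G19Rik), 2.42% for Nr2f1 (with A830082K12Rik) and 0 for Nr2c1, Nr6a1 and Nr5a2. The reads were counted with another annotation (UCSC, of iGenomes), in which these shares can differ. The 2 receptors with the highest shares were the 2 called lower in cDNA under DESeq2 size factors, but with library totals Nr6a1 and Nr5a2, with a share of 0, were called lower as well. Mrps25, a mitochondrial ribosomal protein gene, was higher in cDNA by 2.02 on the log2 scale (SE 0.244, DESeq2 adjusted p = 3.24e-15). Ocel1 did not pass over both states (-0.19, DESeq2 adjusted p = 0.931). In Undiff its mean level was 34.75 CPM with Direct RNA against 37.27 CPM with cDNA and the libraries overlapped, whereas at Day4 it was 14.78 against 2.44 CPM without overlap. The interaction did not pass for it (-3.06, SE 1.19, DESeq2 adjusted p = 1).

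The same split was described over the genes with a mean normalised count of at least 5 that matched the annotation, leaving out 351 without a match (26.21% called lower and 32.76% higher in cDNA). Of 6909 genes with no opposite-strand exon bases 23.1% were called lower in cDNA, against 33.6% of 2916 genes with a share below 30% and 41.6% of 250 genes with at least 30%. Called higher in cDNA were 26.26%, 20.03% and 23.6% of them. Reads that the counter left as ambiguous were 1.21% to 1.44% in Direct RNA and 3.17% to 5.04% in cDNA. The part of the overlap in the levels of Nr2f6 and Nr2c2 was not tested. Of the noncoding partners, B130024G19Rik had 0 and 4 reads at Day4 in Direct RNA and 56 and 212 in cDNA, and A830082K12Rik had 0 and 15, and 25 and 41. Both partners had 0 reads in all 4 Undiff libraries, as Nr2f1 and Nr2f2 nearly had.

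**Figure D3:**
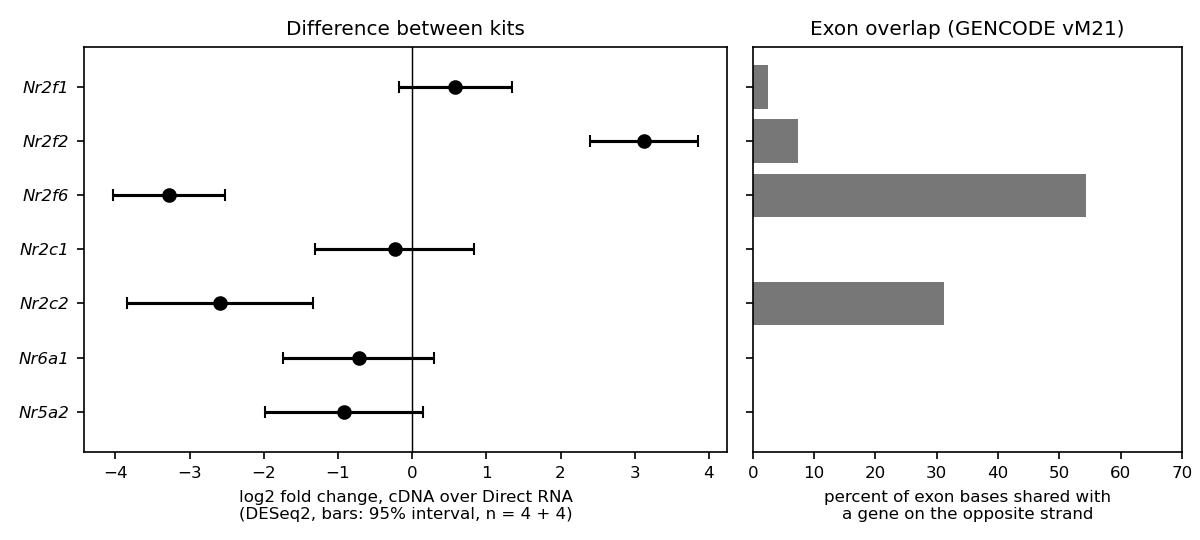
Left, fitted log2 difference of cDNA over Direct RNA for the 7 genes with 95% intervals (8 libraries, state as covariate); right, percent of each gene's exon bases that lie on exons of an opposite-strand gene. Nr2f6 (54.4%) and Nr2c2 (31.2%) have intervals below 0, Nr2f2 (7.46%) above 0. The shares come from GENCODE, while the reads were counted with the UCSC annotation.

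Whether the change between states differed between kits was tested by the interaction of kit and state. None of the 7 genes passed: all adjusted p were 1 in DESeq2, and 0 of 7 had an unadjusted p under 0.05 in DESeq2 or in edgeR. The interaction log2 values were 2.55 for Nr2f1 (SE 2.06), 0.49 for Nr2f2 (SE 1.72), -0.82 for Nr2f6 (SE 0.892), -0.65 for Nr2c1 (SE 1.51), -0.79 for Nr2c2 (SE 1.74), 0.86 for Nr6a1 (SE 1.29) and 0.49 for Nr5a2 (SE 1.68). Over all genes the interaction was called for 0.0116%, that is 2 genes (14 in edgeR). The Undiff groups of Nr2f1 and Nr2f2 were at or near 0 reads, which their fitted values depend on. Errors of this size do not show that the kits saw the same change.

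The other 42 genes of the nuclear receptor family were examined for comparison. This list too was chosen with earlier results of these data known. The adjusted p between states, here and in the next paragraph, are therefore no independent evidence. A mean normalised count of 5 was reached by 15 of them in Direct RNA and by 15 in cDNA, 13 of which were the same genes. Of the 15 in each kit, 3 were called higher at Day4 and 2 lower in Direct RNA, where 9.54% and 7.67% of all genes were, and 1 higher and 2 lower in cDNA, where 8.69% and 9.24% were. The median log2 fold change of the list was -0.01 (all genes 0.03) in Direct RNA and -0.18 (all genes 0.00) in cDNA. Rarb, the RA receptor gene that RA induces, was called higher in both kits. It had 0 reads in Direct RNA Undiff and 117 and 230 at Day4, and 1 and 0 reads in cDNA Undiff against 136 and 257 at Day4. The log2 fold change of Rarb was 8.07 (SE 1.04, DESeq2 adjusted p = 2.21e-12) from native RNA and 6.85 (SE 0.973, adjusted p = 2.52e-10) from cDNA. With the replicate number as a block Rarb was not called in Direct RNA (1.67). Its Undiff group there was at 0 reads, so the fitted value depends on the prior. It was 10 in DESeq2 without shrinkage and 10.59 in edgeR. Its libraries had the same on and off pattern as those of Nr2f1 and Nr2f2.

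Esrrb and Nr0b1, both receptors of the ESC pluripotency network, were called lower in both kits. Esrrb went from 113 and 354 reads to 1 and 5 in Direct RNA (log2 -5.74, SE 0.636, DESeq2 adjusted p = 7.35e-17), and from 41 and 182 reads to 0 and 8 in cDNA (-4.93, SE 0.750, adjusted p = 4.95e-09), where it was not called without the first (-2.75) or the second (-2.42) Undiff library. Nr0b1 (also Dax1) went from 36 and 162 reads to 0 and 1 in Direct RNA (-6.06, SE 0.986, DESeq2 adjusted p = 6.36e-08), and from 19 and 146 to 0 and 1 in cDNA (-6.31, SE 1.06, adjusted p = 1.65e-07). Nr5a2 had the same direction as this pair in each kit. Thra and Rxra, the genes of a thyroid hormone receptor and of the common dimer partner RXR alpha, were called higher in Direct RNA only: Thra had a log2 fold change of 3.90 there, with an adjusted p of 1.71e-05 by DESeq2, and of 1.03 in the other kit, with 0.767. For Rxra these were 2.16 with 0.024, and 0.75 with 0.844. In Direct RNA Thra was not called without the second Undiff (3.40) or the second Day4 library (3.25), and Rxra was called neither with the replicate number as a block (2.101) nor without any 1 library. The interaction test called neither gene, so their change between states is not shown to differ between kits, while in level both were called lower in cDNA. In level, 9 of the 15 receptors with a mean normalised count of at least 5 over both kits were called lower in cDNA and 0 higher, against 26.6% and 24.7% of all genes. With library totals as size factors 13 receptors were called lower, a scaling under which 4394 of all genes were called lower and 1132 higher.

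**Figure D4:**
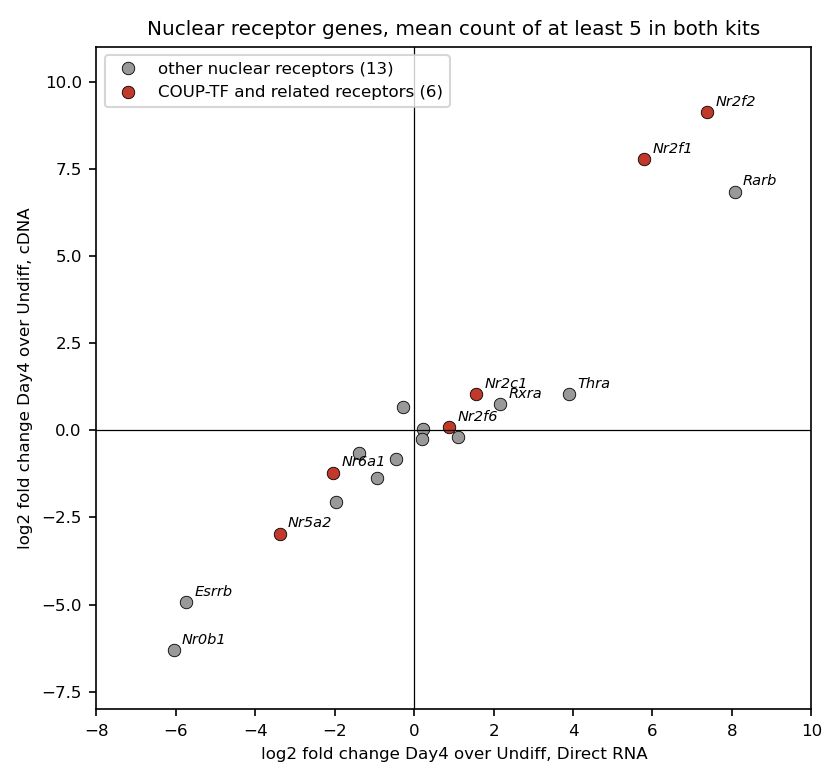
Fitted log2 fold change of Day4 over Undiff in Direct RNA (horizontal) and cDNA (vertical) for the 6 COUP-TF and related genes (red) and 13 other nuclear receptors (grey) with a mean normalised count of at least 5 in both kits. Nr2f1, Nr2f2 and Rarb stand at the upper right, and Nr0b1, Esrrb and Nr5a2 at the lower left.

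Genes that work with these receptors were also counted. Their list was chosen with earlier results of these data known as well, so their adjusted p between states are no independent evidence. Of 24 nuclear receptor coregulators 3 were called higher at Day4 and 4 lower in Direct RNA, and 1 higher and 3 lower in cDNA, with 19 and 18 of them at a mean normalised count of at least 5. Over all genes 9.54% were called higher and 7.67% lower in Direct RNA, against 8.69% and 9.24% in the other kit. Bcl11a, a zinc finger repressor known to bind COUP-TFs, was called higher in both kits, by 3.74 (SE 0.941, adjusted p = 0.00145) and 3.38 (SE 0.677, adjusted p = 2.37e-05, DESeq2) on the log2 scale. Ncoa3, a coactivator, was lower by -1.95 (SE 0.582, adjusted p = 0.0108) and -1.83 (SE 0.424, adjusted p = 0.000412) in the same test. Trim28, a corepressor scaffold, was lower by -1.30 (SE 0.242, adjusted p = 4.26e-06) and -1.36 (SE 0.448, adjusted p = 0.0249). Dnmt3b, the DNA methyltransferase that germ cell nuclear factor is known to recruit, was lower by -4.44 (SE 0.556, adjusted p = 3.6e-13) and -3.96 (SE 0.766, adjusted p = 1.09e-05). Most of these calls depended on single libraries, while Dnmt3b in Direct RNA was called without each library in turn (-4.74 to -3.87). In Direct RNA Bcl11a was called only with both Day4 libraries and the second Undiff library (2.62 to 3.36 without 1 of these), Ncoa3 was called neither without any 1 library nor with a replicate block (-1.88), and Trim28 was not called without the second Undiff library (-1.24). In cDNA without the second Day4 library Bcl11a (2.96), Ncoa3 (-1.51) and Trim28 (-1.27) were not called. Also in cDNA, Ncoa3 was not called without the first Undiff library (-1.55), Trim28 without the first Day4 (-1.30) or second Undiff library (-0.95) or with library totals (-1.06), and Dnmt3b without the second Undiff library (-2.96). Zfpm1, Zfpm2 and Sin3a were called in Direct RNA only, the first 2 higher and Sin3a lower. Zfpm2, which encodes the COUP-TFII partner FOG2, had a log2 fold change of 6.00 (SE 1.15) there and of 3.77 (SE 1.41) in cDNA, and the interaction test called none of the coregulators.

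The 5 known target genes of Nr6a1 or Nr5a2 were read from a short list. Pou5f1, Nanog and Tdgf1, all pluripotency genes, were called lower at Day4 in both kits, and the egg growth factor genes Gdf9 and Bmp15 did not reach a mean normalised count of 5. The 3 genes are also among the ESC markers above, so their values are a description with no p. Pou5f1 had a log2 fold change of -5.07 (SE 1.03) from native RNA and of -5.08 (SE 1.19) from cDNA. Nanog was at -5.06 (SE 0.506) and -3.97 (SE 1.20), and Tdgf1 at -7.10 (SE 0.623) and -7.83 (SE 0.538). Pou5f1 was not called in Direct RNA without the second Undiff library (-4.31), and in cDNA neither Pou5f1 (-4.36 and -4.23) nor Nanog (-3.64 and -3.00) was called without the first or the second Undiff library.

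The genes with the most similar pattern were found for each receptor as the highest Pearson correlation of log2(CPM + 1) over the 8 libraries, among 9208 genes with a mean of at least 10 CPM. The libraries share states and kits, so these values are a description of 4 groups and carry no test. For Nr2f1 they were Ppic (r = 0.995), Pfn2 (0.994) and Snx24 (0.993), with Nr2f2 at 0.949 in place 226. For Nr2f2 they were Ntm (0.996), Nicn1 (0.994) and Anxa5 (0.993). The first in line was Ppp1r12c for Nr2f6 (0.998), Rdh10 for Nr2c1 (0.993), Ptprf for Nr2c2 (0.992), Esrp1 for Nr6a1 (0.978) and Sox15 for Nr5a2 (0.984). Next came Sh2b3 and Wdr41 for Nr2f6, Pank4 and Ypel1 for Nr2c1, Man2c1 and Scrib for Nr2c2, Helq and Cldn4 for Nr6a1, and Tmem19 and Zfp961 for Nr5a2.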

How the data were processed

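Mouse R1 ESC RNA was sequenced in 8 nanopore libraries (2 states, 2 kits, 2 replicates). The authors deposited unnormalised read counts for each gene symbol in whole numbers. They were made from minimap2 alignments to mm10, without secondary alignments, with htseq-count and the UCSC annotation of iGenomes. For the counts on genes, the methods name only Direct RNA as run by strand and give no setting for cDNA. Rows that name no gene were left out of totals and tests. Libraries were grouped by their labels. Each kit was fitted on all genes with DESeq2 1.42.0 (R 4.3.3, shrunken fold changes, no independent filtering, no count filter), as in the study's methods, and p-values were adjusted by Benjamini-Hochberg over all genes tested. A gene was called with an adjusted p of 0.05 or less, a log2 fold change of 1 or more in either direction and a mean normalised count of 5 or more. The kits were compared with state as covariate, and the interaction without shrinkage. edgeR 4.0.16, other size factors, a filter of 10 reads in 2 libraries, replicate blocks and leaving out each library were alternatives. Intervals of ratios of summed reads are exact binomial and cover counting error only.

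The 7 genes and all lists were chosen with earlier results of these data known. All 7 were named with every library's value. Of the other nuclear receptors, coregulators and target genes, those called in the same direction in both kits were named, and counts of 5 or fewer for receptors. The 3 most similar genes were named for each receptor. Zfpm1, Zfpm2 and Sin3a were named after their values were seen. Gene positions come from GENCODE vM21 (GRCm38) and upstream windows from RefSeq (GRCm38.p6). The fits were tested on simulated data. Replicates of a group differed beyond sampling noise, with a chi-square per degree of freedom of 2.68 to 14.9. By the methods, RNA of the separately grown replicates went into both kits, but that the numbers match between kits was not stated. Deviations of same-numbered libraries from their group means, over 1395 genes, correlated at 0.124 between kits in Undiff and at -0.416 at Day4, and between states at 0.214 in Direct RNA and 0.5 in cDNA.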

Additional observations from a re-analysis of the deposited data

How the results depend on the processing

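Nr2c1, Nr2c2, Nr6a1 and Nr5a2 had at most 49 reads in any library, and the parts of depth and of spread between replicates in their errors were not separated. Over the state fits, Nr2f1 and Nr2f2 kept a positive and Nr6a1 and Nr5a2 a negative log2 fold change in both kits under every alternative run. Without 1 library, the change of Nr2c2 was -0.18 to 0.96 with native RNA and -0.62 to 0.042 with cDNA, and that of Nr2f6 was -0.42 to 0.50 with cDNA. The number of other nuclear receptors called higher in Direct RNA (3) was 1 with a replicate block and 1 to 2 without 1 library. The number called lower in cDNA (2) was 4 in edgeR and 1 to 2 without 1 library. Between kits, Nr2c1 ranged from -0.46 to 0.033 without 1 library, and library totals as size factors gave 5 receptors called in place of 3, with Nr2f1 at -0.046. Of the interaction values, Nr2f2 was -0.53 in edgeR and from -0.13 to 2.99 without 1 library, Nr5a2 ranged from -0.10 to 2.62, Nr2c1 from -1.30 to 0.022 and Nr6a1 from -0.96 to 1.54. The cause was not tested.

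Nr6a1 in Direct RNA met the thresholds in edgeR (-2.17) and with the count filter (-1.99) but not in DESeq2 without it. Nr5a2 in cDNA missed them without shrinkage (-3.45) and with library totals (-2.66). All genes called in Direct RNA were 1802 higher and 1455 lower in edgeR (920 and 740 in DESeq2), and in cDNA 1749 and 1599 (893 and 949). Nothing in the labels says that a replicate number ties libraries of the 2 states, and with only 2 numbers per kit the correlations of same-numbered libraries (0.214 in Direct RNA, 0.5 in cDNA) do not settle it. With the number as a block, Direct RNA had 455 higher and 388 lower calls and cDNA 597 and 778. Not called were Nr2f2 in Direct RNA (1.67), Nr2f1 in cDNA (1.76) and Nr5a2 (-3.12 and -2.66). The first 2 had an Undiff group at 0 reads. With state and replicate number as a block between kits, 2446 genes were called higher and 2603 lower, the calls of the 7 genes between kits did not change, and 8 other receptors were called lower in place of 9. With the Day4 numbers crossed, an alternative added after seeing the data, as were library totals, these were 2461 and 2620.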
